A study of Homo sapiens with 2 samples.

Results

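The factors by which a cell detects foreign RNA and answers interferon were followed as 9 genes: STAT2, IRF1, IRF3, IRF7, IRF9, IFIH1, TLR3, MAVS and EIF2AK2. Every probe set annotated to one of these genes and to no other gene was taken, which gave 27 probe sets for 8 of the 9 genes. STAT2 was not analysed here. A probe set was counted as measurable where the brighter of its 2 values reached the floor, set at the median intensity over the non-control values of both arrays (78.0). Of the 27 probe sets 24 passed, and they belonged to 7 genes, out of 10437 genes past the floor on the whole array. TLR3 did not pass.

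The data came from HCT116, an epithelial line from a human colorectal carcinoma, and the stated question was what RAP1 does in such cells. One culture carried a lentiviral negative-control hairpin (sh-negative-control, here shNC) and the other carried the single hairpin sh-RAP1-4# (here shRAP1), each given at a multiplicity of infection of 20 for 72 h. Each culture was hybridised to 1 array, so there is no replicate, no test and no p-value for any difference. Both cultures were infected with lentivirus, no uninfected culture was among the samples, and the labels name no interferon or RNA stimulus. Each difference is given in log2 units, with shNC subtracted from shRAP1. RMA equalises the distributions of the arrays where they are normalised together, so a difference is relative to other genes, and fewer cells with a transcript cannot be told apart from less of it per cell.

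As background, IFIH1 encodes MDA5, a cytosolic sensor of long double-stranded RNA, which signals through MAVS on the outer mitochondrial membrane. TLR3 detects double-stranded RNA inside endosomes and signals through the adaptor TICAM1. Both routes activate the kinase TBK1, which phosphorylates IRF3 and IRF7, the transcription factors that switch on interferon genes. Secreted type I or type III interferon acts through JAK1 and TYK2 to form a complex that holds STAT2 and IRF9 and binds the interferon-stimulated response element (ISRE) of target genes. IRF1 is induced chiefly by interferon gamma, through gamma-activated sites (GAS), and EIF2AK2 encodes PKR, which shuts down translation by phosphorylating eIF2 when it binds double-stranded RNA. IFIH1, EIF2AK2, IRF7, IRF9, STAT2 and TLR3 are themselves interferon-inducible genes, while IRF3 and MAVS are largely constitutive.

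Promoter windows of 300 bases, from 250 before to 50 after the annotated start, were matched in RefSeq (GRCh38.p14) for 7 of the 9 genes. IRF3 and IRF7 were not matched. The windows were searched on both strands for the ISRE core GAAANNGAAA and for the GAS core TTCNNNGAA, which reads the same on both strands. The ISRE core was found in the windows of IFIH1, EIF2AK2 and TLR3, and in 1255 of all 35116 windows (3.57%). The GAS core was found in the windows of IRF1, IRF9 and TLR3, and in 2689 of all windows (7.66%). No ISRE match overlapped a GAS match in these genes, and the STAT2 and MAVS windows held neither core. The stretches below are shown because they carry these matches in 4 genes past the floor, among them IFIH1, the gene with the lowest difference of the group. Each is printed 5′ to 3′ on the strand of the gene, with the matched bases in capitals. The IFIH1 stretch lies at chr2:162318675-162318883 on the minus strand, the EIF2AK2 stretch at chr2:37156971-37157026 on the minus strand, the IRF9 stretch at chr14:24161162-24161250 on the plus strand and the IRF1 stretch at chr5:132490849-132490937 on the minus strand.
IFIH1: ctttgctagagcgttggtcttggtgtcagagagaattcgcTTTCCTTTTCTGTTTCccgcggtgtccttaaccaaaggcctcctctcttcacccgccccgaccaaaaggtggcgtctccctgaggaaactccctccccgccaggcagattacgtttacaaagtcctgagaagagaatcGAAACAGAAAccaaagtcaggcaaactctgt
EIF2AK2: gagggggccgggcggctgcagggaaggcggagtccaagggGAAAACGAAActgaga
IRF9: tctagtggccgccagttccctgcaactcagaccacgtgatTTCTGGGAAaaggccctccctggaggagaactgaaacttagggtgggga
IRF1: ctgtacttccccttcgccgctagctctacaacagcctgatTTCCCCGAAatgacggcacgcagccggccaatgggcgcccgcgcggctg

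Counted from the start site, the IFIH1 window held an ISRE core on the gene's own strand at -21 to -12, and on the opposite strand a pair that overlaps, at -159 to -150 and -153 to -144. The EIF2AK2 core spanned the start, from -6 to 4. The GAS core lay at -63 to -55 in IRF9 and at -124 to -116 in IRF1. A match is a run of letters and was not shown to be bound in these cells. Across the 307 genes past the floor with an ISRE core in such a window, the median difference was 0.0085, beside 0.0072 for the 8660 genes past the floor with a window. Of these 307 genes, 1.63% were lower in shRAP1 by the size counted below (0.32 in log2 units), beside 1.92% of all genes past the floor. The 726 genes past the floor with a GAS core had a median difference of -0.0059, and 2.62% of them were lower by that size.

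Of the 3 sensors, IFIH1 and EIF2AK2 were lower in shRAP1, and TLR3 was too dim to compare. IFIH1 stood at 186 in shNC and at 140 in shRAP1 on its probe set 11724346_a_at, which is 75.2% of the control and a log2 difference of -0.41. Of the 10437 genes past the floor, 74 had a lower difference. Its other probe set was far below the floor, at 14.2 and 11.6, and adds no size. The IFIH1 difference therefore rests on 1 probe set.

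EIF2AK2, the PKR gene, was read by 2 probe sets past the floor, both lower in shRAP1. The brighter stood at 253 in shNC and 224 in shRAP1, a difference of -0.18. The dimmer stood at 195 and 161, a difference of -0.27, and its name ends in _x_at, the mark of probes that can also match other transcripts. TLR3 had a single probe set, at 22.7 in shNC and 15.7 in shRAP1. Both values lie below the floor, so no fold is given for TLR3.

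MAVS, the mitochondrial adaptor, gave no single answer across its 7 probe sets past the floor. The brightest stood at 557 in shNC and 540 in shRAP1, a difference of -0.044. The next stood at 460 and 396, a difference of -0.22. Of the 7, 6 were lower and 1 was higher, and they ran from -0.33 (156 in shNC and 124 in shRAP1) to 0.073 (191 and 201), with a median of -0.14. The dimmest lay at the floor, with 81.3 in shNC and 71.3 in shRAP1. How MAVS is summarised moves its value by more than 1.5 times, from -0.044 by the brightest probe set to -0.14 by the median.

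**Figure D1:**
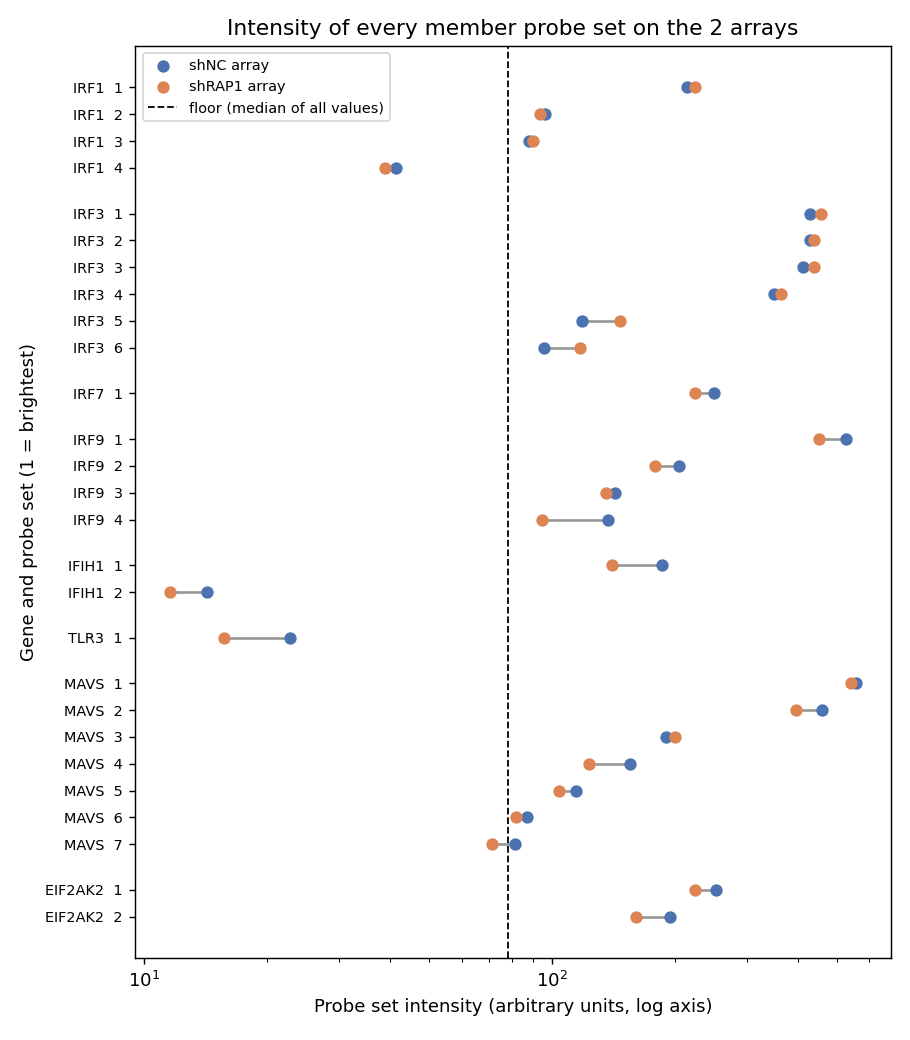
Intensity of each of the 27 probe sets on the shNC array (blue) and the shRAP1 array (orange), on a log axis, with probe sets ordered by brightness within a gene and the floor of 78.0 as a dashed line. All IRF9 and EIF2AK2 probe sets were lower on the shRAP1 array, all IRF3 probe sets were higher, and TLR3 lay below the floor on both.

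IRF3 and IRF7, which act below the sensors, their adaptors and TBK1, differed in opposite directions by small amounts. All 6 IRF3 probe sets were higher in shRAP1. The brightest stood at 429 in shNC and 456 in shRAP1, a difference of 0.090. That probe set is also an _x_at one, and without such probe sets IRF3 stood at 0.032. The 4 bright probe sets lay between 0.032 and 0.090, whereas the dimmer 2, both designed on the same transcript record, stood at 0.31 (119 and 147) and 0.30 (95.7 and 117). A pair of the bright ones, 11756572_x_at and 11718672_x_at, had the same difference to within 0.00001 and are not separate measurements. Such identity was found in 1.42% of the 25514 pairs of probe sets of one gene. IRF7, the interferon-inducible relative of IRF3, had 1 probe set, at 250 in shNC and 224 in shRAP1, a difference of -0.16.

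IRF9, the DNA-binding subunit of the complex with STAT2, was lower on all 4 of its probe sets. The brightest stood at 527 in shNC and 452 in shRAP1, a difference of -0.22, or 85.7% of the control. The second stood at 205 and 179, a difference of -0.20, and the third at 143 and 136, a difference of -0.072. The dimmest, 11720208_a_at, had the lowest difference of any measurable probe set of the group, at 137 in shNC and 94.6 in shRAP1, or -0.54. The direction was shared by the 4 probe sets, and the size was not, since they ran from 95.1% to 69.0% of the control.

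IRF1 was close to level. Its brightest probe set stood at 215 in shNC and 224 in shRAP1, a difference of 0.062. The other probe sets past the floor were at 95.9 and 93.4 and at 87.8 and 89.8, differences of -0.038 and 0.032. A probe set below the floor stood at 41.5 and 38.9.

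**Figure D2:**
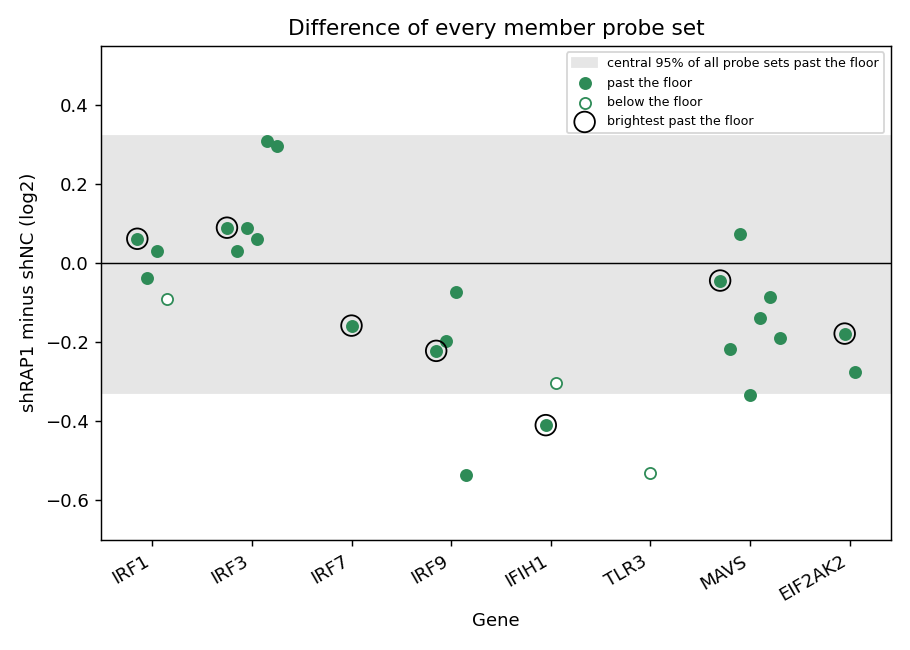
Difference of each probe set, shRAP1 minus shNC in log2 units, by gene, with filled points past the floor, open points below it and a ring around the brightest probe set past the floor. The grey band holds the central 95% of all 23141 single-gene probe sets past the floor, from -0.33 to 0.32, and among measurable probe sets of the group one each of IRF9, IFIH1 and MAVS lies below it.

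With each gene read from its brightest measurable probe set, 5 of the 7 genes were lower in shRAP1 and 2 were higher, with a median of -0.16, while 46.8% of all genes past the floor were lower and their median was 0.010. Genes were then counted at a ratio of 5 to 4 or more between the arrays, which is 0.32 in log2 units. At this size 1 of the 7 genes (IFIH1) was lower, beside a background of 1.92% of all genes, and 0 were higher, beside 2.5%. At the level of single probe sets, 15 of 24 were lower, beside 50.6% of all single-gene probe sets. Of those 24, 3 (1 each of IFIH1, IRF9 and MAVS) were lower by at least 0.32, beside 2.68% of all, and 0 were higher by that size, beside 2.49%. The probe sets of one gene share their RNA and some share probes, so they are not separate measurements of the cells.

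Without replicate arrays, the spread available is that between probe sets of one gene. Over the 6135 genes that had 2 or more measurable probe sets, the pooled SD of their differences was 0.106. This covers how probe sets disagree on these arrays and does not cover variation between cultures. The IFIH1 difference was 3.87 times this SD in size, IRF9 2.10 times, EIF2AK2 1.68 times and IRF7 1.49 times. IRF3 (0.85 times), IRF1 (0.58 times) and MAVS (0.42 times) lay within it. MAVS lay within it by its brightest probe set, and past it by the median of its 7 probe sets (-0.14). IFIH1 and IRF7 had 1 measurable probe set each and so no such spread of their own. The probe sets of IRF9 ran from -0.54 to -0.072. Over all 10437 genes past the floor, the SD of the differences between the arrays was 0.157.

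**Figure D3:**
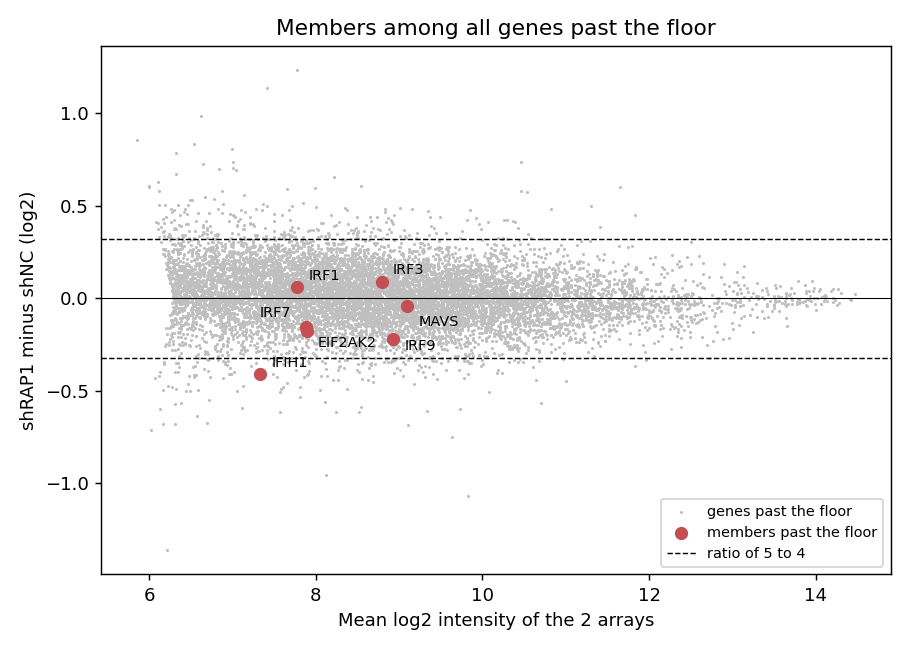
Mean log2 intensity of the 2 arrays against the difference shRAP1 minus shNC for the 10437 genes past the floor (grey, 1 point a gene by its brightest probe set), with the 7 measured factors in red and dashed lines at a ratio of 5 to 4 (0.32). IFIH1, at -0.41, is the factor past the dashed line, and the other 6 lie inside.

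The rest of the pathway was described through 8 lists of other genes. Beside them, 46.8% of all genes past the floor were lower, 1.92% lower by 0.32 or more and 2.5% higher by as much. The interferon genes themselves gave no measurable signal: the 7 with a value (IFNB1, IFNA2, IFNE, IFNK, IFNW1, IFNG and IFNL1) were all below the floor on both arrays, and the highest, IFNE, stood at 26.9 in shNC and 20.3 in shRAP1. The 10 receptor, JAK and STAT genes past the floor had a median of -0.051, 6 of them lower and 4 higher, and 0 differed by 0.32 or more. STAT3, the transcription factor of the interleukin-6 pathway, was the largest at 0.26 with its 3 probe sets between 0.25 and 0.34. The type III receptor gene IFNLR1 was at 0.16 on 1 probe set, and the type I receptor gene IFNAR1 at -0.14 with 4 probe sets between -0.28 and -0.055.

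Among other sensors and their cofactors, 10 were past the floor, 6 lower and 4 higher, with a median of -0.052 and a mean of 0.0074, which differ in sign. Of all genes past the floor, 1.92% were lower and 2.5% higher by 0.32 or more. In this list OAS2, an oligoadenylate synthetase, was the 1 gene past that size, at 0.33 with its shNC value under the floor. Its relative OASL was at -0.23 (109 and 92.9), and RNF135, a ubiquitin ligase that activates RIG-I, at 0.20 with its other probe set at 0.39. RIGI, the gene of the sensor most like MDA5, was named after its value was seen and stood at -0.059, with its 3 probe sets between -0.29 and -0.059. DHX58, the third gene of that family, was below the floor at 26.1 and 26.7.

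The adaptors and kinases between the sensors and the IRFs were balanced, with 8 of 16 lower, 8 higher, 0 past 0.32 in size, a median of 0.0017 and a mean of -0.0017. TRAF6 was at 0.18, the kinase gene IKBKB at -0.18 with 5 probe sets between -0.33 and 0.036, and TANK, a TBK1-binding scaffold, at -0.18 with 4 probe sets that were all lower. TBK1 itself, named after its value was seen, was at -0.11 and the TLR3 adaptor gene TICAM1 at -0.0065. The 6 other interferon regulatory factors and partners had a median of 0.034, 5 of them higher and 1 lower. They were led by IRF2BP2, a corepressor partner of IRF2, at 0.21 with 5 probe sets between -0.064 and 0.21, then IRF2 at 0.12 and IRF5 at -0.059. The 13 negative regulators had a median of 0.0040, 7 of them higher, 5 lower and PTPN1 level. NLRC5, which also activates HLA class I transcription, was at 0.30 on 1 probe set and the deubiquitinase gene CYLD at -0.20. PTPN2, a phosphatase of JAK and STAT proteins, was at 0.18 by its brightest probe set while its 3 probe sets ran from -0.70 to 0.18.

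PKR shares its substrate with other kinases, so the eIF2 genes were listed with it. The 16 such genes had a median of -0.041, 9 of them lower and 7 higher. DNAJC3, an inhibitor of PKR and of the kinase encoded by EIF2AK3, was the 1 gene past 0.32 in size. It stood at -0.39 (592 and 453) with its other probe set at -0.013. Over all genes past the floor, 1.92% were lower and 2.5% higher by 0.32 or more. EIF2B2, a subunit of the eIF2 exchange factor, was at -0.31 and EIF2S1, the phosphorylated subunit of eIF2, at 0.23 with all 5 of its probe sets higher.

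Of the genes that this pathway switches on, the 27 interferon-stimulated effector genes past the floor had a median of -0.10, 18 of them lower and 9 higher, and 4 were lower and 2 higher by 0.32 or more. Over all genes past the floor 46.8% were lower, 1.92% were lower by 0.32 or more and 2.5% were higher by as much. The list's median was -0.041 over the 12 genes left by a floor at the 75th percentile, and -0.072 with an offset of 50 before log2. BST2 stood at 0.73, from 78.1 in shNC, at the floor, to 129 in shRAP1, with its other probe set at 0.61. NMI was at -0.61, with all 5 of its probe sets lower. IFIT1 was at -0.59 on 1 probe set. The others lower by 0.32 or more were IFIT2 and SAMD9, on 1 measurable probe set each. IFIT2 stood at 85.0 in shNC and at 60.3 in shRAP1, the latter under the floor. ISG15, the ubiquitin-like modifier, was named after its value was seen and stood at -0.27 (1761 and 1457). Named likewise, IFITM1 was at 0.42 (351 and 469), IFITM3 at 0.17 (3448 and 3881) and IFITM2 at 0.14, all higher in shRAP1.

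**Figure D4:**
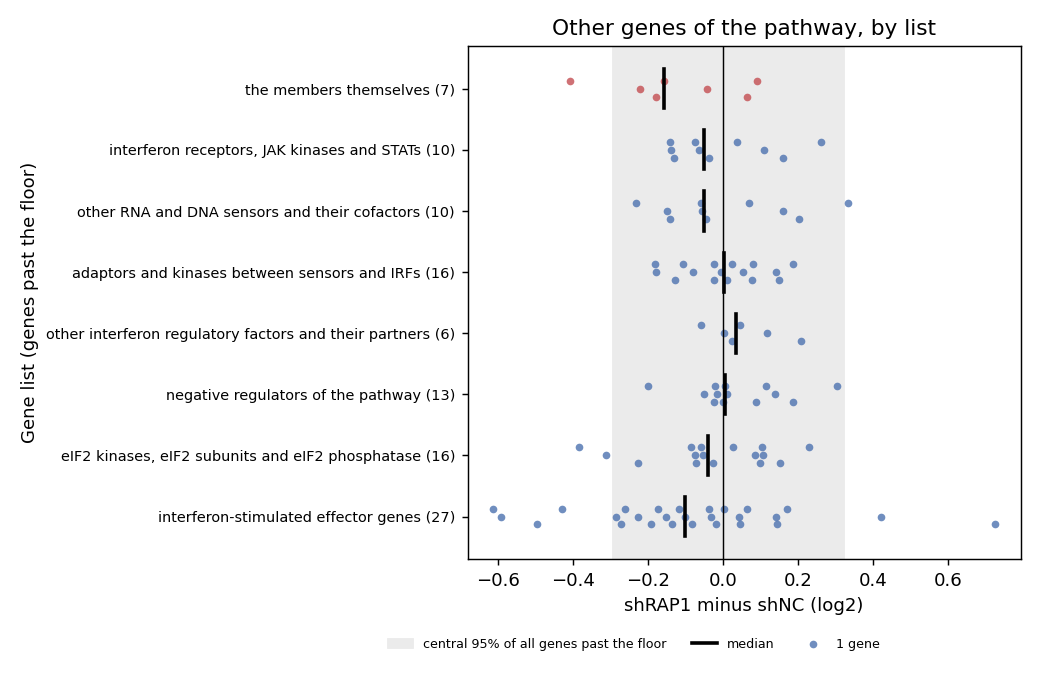
Difference shRAP1 minus shNC in log2 units of each gene past the floor, by list, with the 7 measured factors in red, a black bar at each list's median and the central 95% of all genes past the floor in grey (-0.29 to 0.32). The medians run from -0.16 for the factors and -0.10 for the effector genes to 0.034 for the other interferon regulatory factors and partners. With the floor at the 75th percentile, the factor median was -0.044 over 3 genes and the effector median -0.041.

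The label RAP1 can stand for TERF2IP or for RAP1A and RAP1B. TERF2IP, which encodes the telomeric protein RAP1, stood at 47.6% of the control on a single probe set past the floor. RAP1A stood between 85.5% and 88.0% and RAP1B between 89.9% and 93.3%. Of 10 epithelial markers 8 were past the floor, with CDX1 and VIL1 below it, and the summed level of these 8 was 35375 in shNC and 36064 in shRAP1. Of 9 leukocyte markers 2 were past the floor (HLA-DRA and CD68, summed level 291 in shNC and 347 in shRAP1), and PTPRC, CD3E and CD14 were below it. Of 11 fibroblast and endothelial markers, 2 were past the floor (KDR and VWF, 208 and 213). Among spike-in RNAs with a poly(A) tail, the median difference lay between -0.41 and -0.29 for dap, lys and phe and was 0.41 for thr, so that lys and thr differed between the arrays by the size seen for IFIH1. Control probe sets for background, grouped by GC class, also differed. All 10 of class 16 to 25 were higher in shRAP1, with a median of 0.105. Of the 13 of class 3 to 15, 3 were higher, and their median was -0.025. The part of these control differences in the values above was not tested.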

How the data were processed

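Probe set intensity values on a linear scale were deposited by the authors in 1 table, and the submitters' processing notes name RMA, with the version and the arrays normalised together not given in the sources used here. The linear scale was read from the values, which ran from 5.58 to 25726, and log2 was taken with no offset. Gene names came from the platform annotation: of 49293 non-control probe sets, 44988 carried 1 symbol, 1832 several and 2473 none, and probe sets with several or none were not used. Median intensities were 77.0 (shNC) and 78.9 (shRAP1), and the precision is limited by there being 1 array a group. A gene's value is its brightest single-symbol probe set past the floor. With 1 array per group differences were counted by size (a ratio of 5 to 4) and not tested. Values were computed in Python 3.11.15 with pandas 2.3.3, numpy 2.4.6 and statsmodels 0.14.6. The counting was checked on simulated data with planted differences larger than that of any factor here. It was not checked at smaller differences.

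The genes, lists and sizes were chosen with earlier results of these data known. All 9 genes were named with every probe set, with up to 3 genes of each list by size of difference. Outside this rule, RIGI, DHX58, TBK1, TICAM1, PTPN1, ISG15, IFIT2, SAMD9, IFITM1, IFITM2 and IFITM3 were also named. A further gene list is not reported here. Alternatives changed the probe set summary, the floor, the probe sets admitted, the centring, an offset and the size counted. Promoter sequences came from RefSeq, GRCh38.p14.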

Additional observations from a re-analysis of the deposited data

How the results depend on the processing

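The differences of the 7 measured factors kept their sign in all 38 recalculations and moved by less than the 0.106 spread between probe sets of a gene: the median of a gene's probe sets, no floor, a floor at the 75th percentile (312), no probe sets ending in _x_at or _s_at, lowess centring (span 0.3) and an offset of 50 before log2. Many of these recalculations could not change a value. A gene's brightest probe set stays its brightest with no floor, or with a higher floor that it passes. The median for IRF7 and for IFIH1 is that of their 1 measurable probe set. Leaving out _x_at and _s_at probe sets changed the value of IRF3 alone. With the 75th percentile floor 3 factors were left (IRF3, IRF9 and MAVS), their median was -0.044 and 0 were lower by 0.32 or more. The count of factors lower by 0.32 or more (1) was 2 with no floor, where TLR3 entered on values below the floor, and 0 with the offset, where IFIH1 stood at -0.31. At other sizes the count was 4 at 1.1-fold, 0 at 1.5-fold and 0 at 2-fold, and the count of higher factors was 0 throughout. Each list median was recalculated with the settings above, and the list mean was also taken in its place, 49 values in all. Of these, 8 moved past their spread, in the lists of receptors, JAK kinases and STATs, other sensors, negative regulators, eIF2 genes and effector genes. Sign changed in 7, in the lists of other sensors, adaptors and kinases, and negative regulators. No paired analysis was possible because each group held 1 array, and for the same reason no array could be left out in turn. Values near the floor, such as those of the dimmest MAVS probe sets, limit what the arrays can show.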
